A study of Mus musculus with 2 samples.

Results

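Macrophages that carry C1q together with Mrc1, Folr2, Ccl8 or Cd163 were examined in single-cell RNA of Lewis lung carcinoma (LLC) tumors. They were chosen by their RNA counts: a barcode was a member with at least 1000 UMIs (molecules counted once by a tag), under 10% mitochondrial UMIs, under 475 CPM (UMIs of a gene scaled by all UMIs of the cell) of the cancer-cell genes Rhox5, Krt8, Krt18 and Hmga2, at least 1500 CPM of Tyrobp, Fcer1g and Ctss, and at least 1000 CPM of C1qa, C1qb and C1qc. A member also had under 4000 CPM of the MHC class II genes H2-Aa, H2-Ab1 and H2-Eb1, at least 10 UMIs of Mrc1, Folr2, Ccl8 and Cd163 together, and at most 2 UMIs of the cycle genes Mki67 and Top2a. This gave 669 of 15007 barcodes in the sGC-Ctr library and 435 of 25631 in the sGC-∆PC library, 1104 of 40638 in all. Each library is 1 pool of 3 tumors, so a difference between the conditions cannot be told apart from a difference between the libraries. No test between conditions was run. The 95% intervals reflect the counting of UMIs or cells and nothing of the spread between tumors.

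Both groups were C57BL/6 mice carrying Gucy1b1 flox/flox, the floxed gene of the β1 subunit of soluble guanylate cyclase (sGC), the receptor of nitric oxide. The sGC-Ctr mice had no further allele in the labels, and the sGC-∆PC mice also carried Cspg4-CreERT2 (labelled Cspg4-CreER T2::Gucyc1b1 flox/flox), a knock-in in which Cspg4, a gene of pericytes, drives a tamoxifen-dependent Cre. Tamoxifen was given in 5 doses at 4 weeks of age, LLC cells were placed under the skin at 8 weeks, and tumors were taken 2 weeks later. The comparison asks what macrophages look like when pericytes lack sGC. The sGC-Ctr library held 487859656 UMIs with a median of 23337 per barcode, and the sGC-∆PC library 436352742 UMIs with a median of 8019. The libraries shared 131 barcode sequences, none of them a member in both.

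Macrophages of this kind are known from many tissues, where they often lie beside vessels. Mrc1 (the mannose receptor CD206) and Cd163 (the hemoglobin-haptoglobin receptor) are scavenger receptors, Folr2 binds folate, Ccl8 is a chemokine, and Lyve1 is a hyaluronan receptor of perivascular macrophages. Timd4, a receptor for phosphatidylserine, marks long-lived resident macrophages in several organs. C1q starts the classical complement pathway and is made in tissues mainly by macrophages.

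The data carried the label in part. Mrc1 was found in 99.6% of sGC-Ctr members and 99.1% of sGC-∆PC members, and Folr2 in 97.6% and 93.6%. Ccl8 had no UMI in 62.3% of members (95% interval 58.5 to 66.0) and 55.4% (50.6 to 60.1), and Cd163 had none in 89.7% and 90.8%. All 4 genes together were found in 6.58% and 3.91% of members. Lyve1, which the selection did not use, was found in 18.7% (15.8 to 21.8) and 19.5% (15.9 to 23.6), and after thinning each cell to 2000 UMIs in 6.88% of 669 and 9.91% of 434 members, against 0.1% and 0.2% of cancer cells. Timd4 was near absent, with 6 UMIs in each library. The selection summed the 4 genes, so these shares describe the cells it chose, and a cell with no UMI of a gene may still express it below this depth. The members are called Mrc1 Folr2 macrophages here, after the genes found in nearly all of them. "Resident-like" was not borne out by Timd4.

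Macrophage genes that the selection did not use were present in both libraries. Adgre1 (F4/80) stood at 361 and 350 CPM, Csf1r (the receptor of the growth factor CSF1) at 470 and 389, and Cd68, a lysosomal protein of macrophages, at 855 and 760. C1qa, C1qb and C1qc, which the selection used, summed to a median of 12446.5 and 10453.5 CPM per member. RNA of other cell types was also present. Fibroblast markers, a list of 8, summed to 836 and 331 CPM, and 62.0% and 72.4% of members had at least 3 of their UMIs. Cancer-cell markers, 4 of which the selection capped, summed to 143 and 140 CPM over 8, with at least 3 UMIs in 32.9% and 33.1% of members. Monocyte markers summed to 186 and 271 CPM over 6 (22.3% and 32.6% of members), granulocyte markers to 117 and 133 over 6 (5.83% and 11.7%), and erythroid markers to 169 and 1.06 over 5 (1.35% and 0.230%). Lymphoid and vessel markers were scarce. RNA of T cells summed to 4.32 and 3.18 CPM over a list of 7 markers, of natural killer cells to 0.211 and 0.303 over 5, of pericytes to 4.01 and 3.18 over 6, and of endothelial cells to 14.4 and 18.2 over 8. The members were deep cells, with medians of 13330 UMIs (3694 to 50802) and 14759 UMIs (1961 to 52789).

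**Figure D1:**
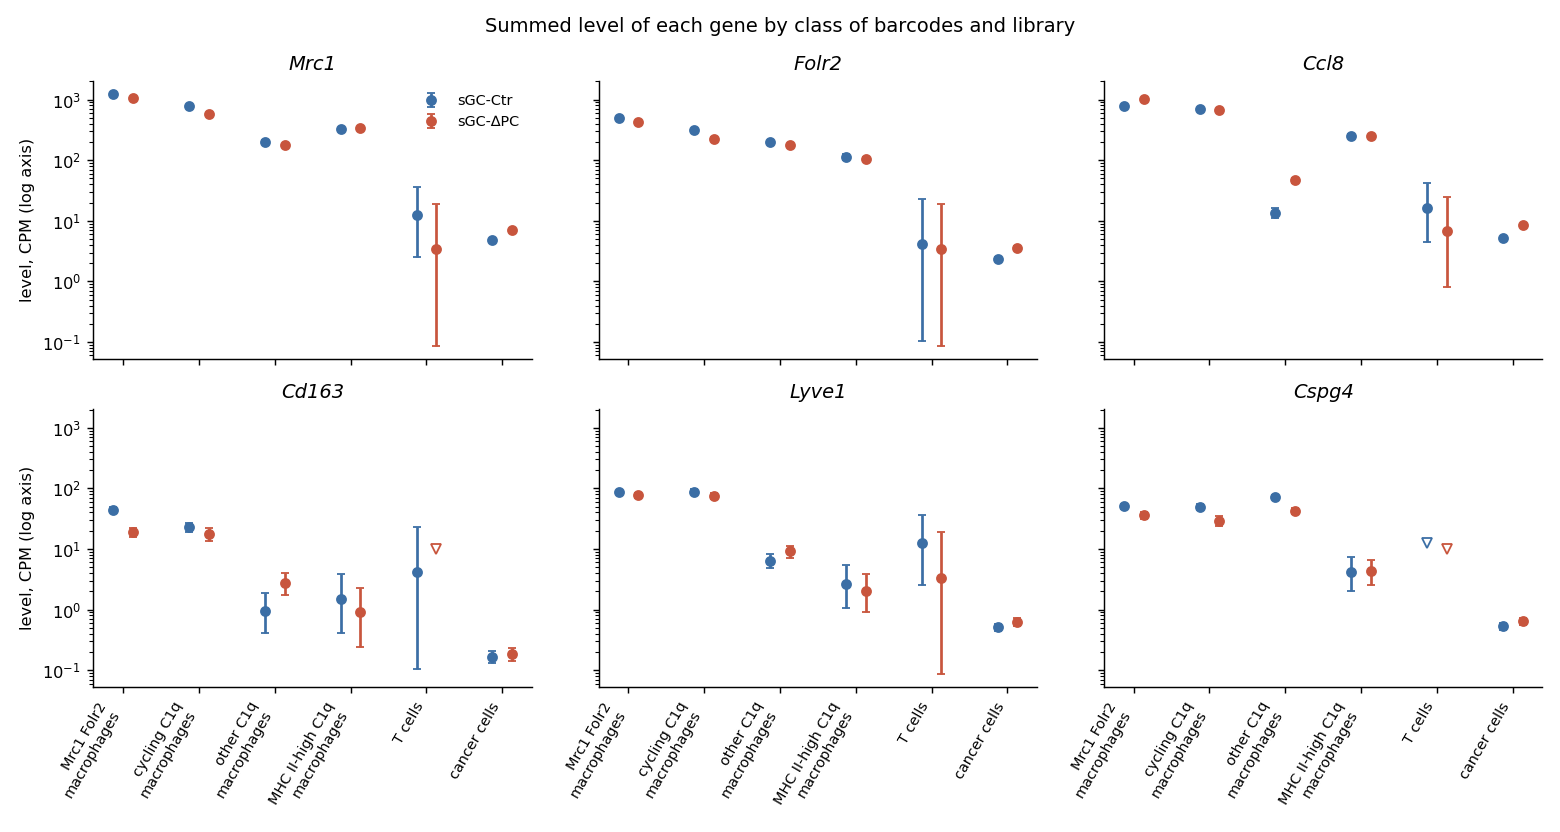
Summed level of 6 genes in CPM, on a log axis, in 4 classes of C1q macrophages, in T cells and in cancer cells of each library. Bars are 95% Poisson intervals and open triangles mark the level that 3 counts would give where no UMI was found; Cspg4 is high in Mrc1 Folr2 macrophages and other C1q macrophages (36.1 to 73.1 CPM) and low in MHC II-high ones (4.09 and 4.26 CPM).

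Mrc1, summed over members, stood at 1231 CPM in the sGC-Ctr library and at 1078 CPM in the other, and Folr2 at 502 and 421 CPM. Ccl8 stood at 773 and 1008 CPM, Cd163 at 44.5 and 19.0, and Lyve1 at 86.1 and 77.0. These genes selected the cells (Lyve1 apart), so their levels are a description. The higher Ccl8 in sGC-∆PC turned to lower, a log2 ratio of -0.55, among members with 5000 to 20000 UMIs. C1q macrophages under the 10-UMI minimum had 203 and 175 CPM of Mrc1 and 13.7 and 46.4 CPM of Ccl8, and MHC II-high ones (at least 4000 CPM of MHC class II) 322 and 337 CPM of Mrc1 and 255 and 249 CPM of Ccl8. Cycling C1q macrophages (over 2 UMIs of Mki67 and Top2a) were lower in Mrc1, at 795 and 573 CPM, and in Folr2, at 318 and 224. They had 713 and 670 CPM of Ccl8, 22.8 and 17.4 of Cd163 and 88.3 and 76.0 of Lyve1.

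The minimum cut a range and not a gap. Members with 10 to 12 UMIs of the 4 genes numbered 139 and 98, and cells just outside, with 7 to 9 UMIs, numbered 188 and 150. Mrc1 stood at 446 and 420 CPM just inside and 356 and 316 just outside. Ccl8 was low on both sides, at 26.7 and 65.6 CPM inside and 24.7 and 86.4 outside, and so was Lyve1, at 8.72 and 14.4 inside and 8.70 and 15.9 outside.

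One gene led most cells. Mrc1 had the most UMIs of the 4 selecting genes in 429 members (64.1%, 60.4 to 67.8) of sGC-Ctr and 253 (58.2%, 53.4 to 62.8) of sGC-∆PC, and Folr2 led in 150 (22.4%) and 90 (20.7%). Ccl8 led in 69 members (10.3%, 8.11 to 12.9) and 76 (17.5%, 14.0 to 21.4). The selection used all 4 genes, so these shares are a description of 1 library each. Cd163 led in 0 of 669, which at 3 counts of the total allows a share of up to 0.448%, and in 1 of 435. Ccl8 was concentrated: the 10 cells with most held 50.7% of its UMIs in the sGC-Ctr library and 58.4% in the other, and the highest single member summed to 1543 UMIs of the 4 genes.

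Ccl8-led members differed from Mrc1-led members in both libraries. Of 7575 genes with enough UMIs, 55 were at least 2-fold higher in both libraries (0.726%) and 17 at least 2-fold lower in both (0.224%). The members were split by Ccl8 and Mrc1, so this is a description. Of 14 resident and perivascular genes measured, 11 were higher in both libraries and 5 at least 2-fold, with medians of 0.90 in sGC-Ctr and 0.69 in sGC-∆PC against -0.03 and -0.05 for all genes, 23.2% of which were higher in both. Lyve1 stood 2.44 and 2.66 higher on the log2 scale, Vsig4, a complement receptor, 2.60 and 2.11, and Igf1, a growth factor, 2.63 and 1.61. Others of the list were near level: Stab1, a scavenger receptor (0.25 and 0.00), the transcription factor Maf (0.22 and -0.13) and Pf4, a chemokine (0.23 and 0.31). Cd163, a selecting gene, stood 3.45 and 2.01 higher. Ednrb, the endothelin B receptor, stood 4.71 and 3.33 higher, with 291 UMIs in 69 Ccl8-led members of sGC-Ctr and 111 in 76 of sGC-∆PC. Of 18 interferon-stimulated genes measured, all were higher in both libraries and 7 at least 2-fold, with medians of 0.97 and 1.15. Their ratios ran unevenly: Zbp1, a sensor of nucleic acids, stood 1.54 and 1.25 higher, Gbp2 3.02 and 2.12, Stat2, a transcription factor of the response, 0.44 and 0.23, and Ifit3 0.02 and 3.07. Among single genes outside that list, chosen for their values, were Cxcl9, a chemokine for T cells (4.23 and 3.01), Serpina3g (5.02 and 3.59) and Iigp1 (3.00 and 1.87). The matrix genes Col1a2 (2.66 and 2.43) and Col1a1 (1.98 and 2.30), which are genes of fibroblasts, moved with them, as did all 7 fibroblast markers measured, these among them (medians 1.98 and 1.04). Their part in the result was not tested.

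Lower in Ccl8-led members were Ccr2, the chemokine receptor of monocytes (log2 ratio -2.09 and -1.0), Thbs1, thrombospondin-1 (-1.68 and -1.58), Nt5e, the ecto-enzyme CD73 (-2.87 and -2.07), and Cxcl3, a chemokine for neutrophils (-3.11 and -1.65).

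**Figure D2:**
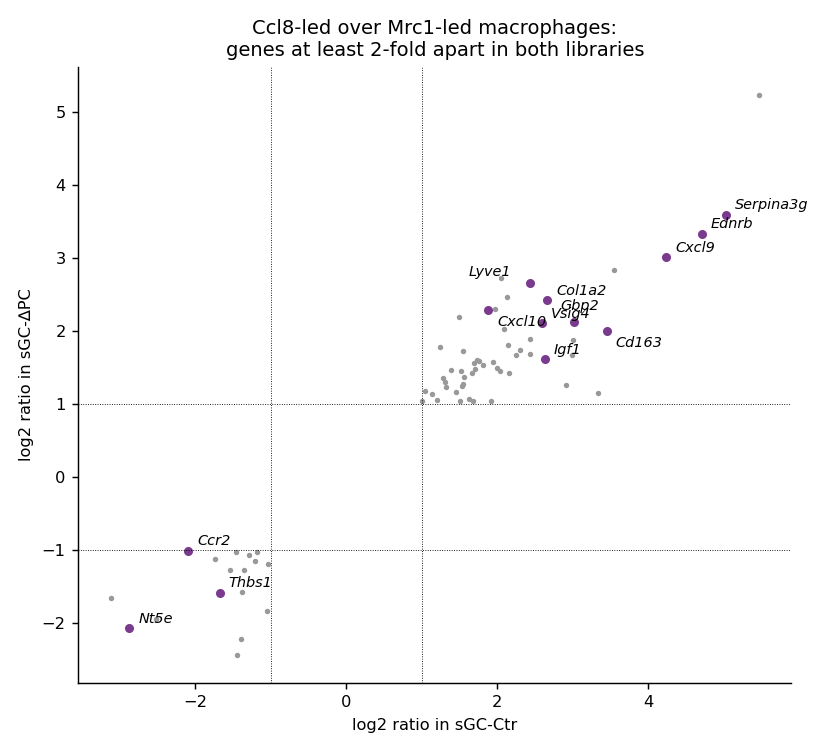
Log2 ratio of Ccl8-led over Mrc1-led members in sGC-Ctr (horizontal) and sGC-∆PC (vertical), for the 72 genes at least 2-fold apart in both libraries; each point is a gene and dotted lines mark 2-fold. Ednrb, Serpina3g and Cxcl9 lie highest after Ccl8 itself, and Nt5e, Ccr2 and Thbs1 are among the 17 genes on the lower side.

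Ccl8 lies at chr11:82115185-82116799 (GRCm38, plus strand) in a run of chemokine genes, with Ccl2 at chr11:82035571-82037453, Ccl7 at chr11:82045712-82047525 and Ccl12 at chr11:82101845-82103400. CCL2, CCL7 and CCL12 draw monocytes through CCR2. Ccl2, Ccl7 and Ccl12, which the selection did not use, were higher in members than in other C1q macrophages of both libraries. Ccl12 stood at 656 and 582 CPM in members against 84.3 and 178.5 in other C1q macrophages (log2 ratio 2.96 and 1.70). Ccl7 stood at 729 and 637 against 170 and 170 (2.10 and 1.91), and Ccl2 at 1066 and 1161 against 349 and 441 (1.61 and 1.40). The other C1q macrophages leave out cycling and MHC II-high cells. Cycling ones had 660 and 510 CPM of Ccl12, 614 and 418 of Ccl7 and 999 and 843 of Ccl2. Outside macrophages, Ccl2 stood at 454 and 621 CPM in cancer cells, 132 and 239 in granulocytes and 74.5 and 138 in T cells. How far shared background sets the Ccl2 level of members was not tested. RefSeq promoters were given for Ccl8 and Ccl12 and not for Ccl2 or Ccl7. They are shown because both genes were higher in members than in other C1q macrophages, which for Ccl8, a selecting gene, follows from the selection. Each is given as the 250 bases before the start on GRCm38.p6, plus strand, with the TATA box in capitals.
Ccl8, chr11:82114935-82115184: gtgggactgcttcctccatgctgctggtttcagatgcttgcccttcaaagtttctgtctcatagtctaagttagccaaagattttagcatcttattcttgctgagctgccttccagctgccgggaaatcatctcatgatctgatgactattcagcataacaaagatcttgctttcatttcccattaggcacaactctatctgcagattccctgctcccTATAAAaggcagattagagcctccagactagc
Ccl12, chr11:82101595-82101844: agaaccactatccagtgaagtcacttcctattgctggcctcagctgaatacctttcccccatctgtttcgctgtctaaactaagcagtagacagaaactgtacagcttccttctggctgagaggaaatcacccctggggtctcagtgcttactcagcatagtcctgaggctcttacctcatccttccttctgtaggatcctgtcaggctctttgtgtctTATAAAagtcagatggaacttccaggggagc
Each holds TATAAA, at -32 in Ccl8 and -31 in Ccl12, a motif (TATAAA or its reverse complement TTTATA) found in 12.4% of 32851 promoters of this length. Neither window held a GAS motif, the STAT site (TTCNNNGAA, in 7.02% of promoters), or an AP-1 motif (TGANTCA, in 6.75%) on either strand. A match describes letters and not binding, and no match says only that these letters are not in this window.

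Members made up 30.7% of C1q macrophages in sGC-Ctr (669 of 2178, 95% interval 28.8 to 32.7) and 16.9% in sGC-∆PC (435 of 2578, 15.4 to 18.4). The selection needs 10 UMIs, so it takes deep cells, and C1q macrophages were shallower in sGC-∆PC: the medians were 11446 and 7660.5 UMIs, and 34 against 773 had 1000 to 3000. At matched depth the gap varied with the band. Between 10000 and 15000 UMIs the shares were 40.9% (37.5 to 44.4) and 24.0% (20.4 to 27.9), between 15000 and 20000 UMIs 46.8% (41.4 to 52.2) and 44.0% (38.1 to 50.0), and from 20000 UMIs 33.2% (27.0 to 39.9) and 41.2% (34.6 to 48.0). With every cell thinned to 5000 UMIs and 5 UMIs required, the shares were 33.3% and 24.3%. A lower share in sGC-∆PC stood beyond the intervals at 10000 to 15000 UMIs, and the intervals overlapped in the bands on either side. Dissociation can lose cells of a class, and in a pooled suspension this cannot be told apart from fewer cells in the tumor. Of C1q macrophages, MHC II-high cells were 11.9% and 21.4% and cycling cells 16.2% and 8.88%. The cycling class is also cut on UMIs, so it too takes deep cells, with medians of 17258.5 and 17774 UMIs. These shares were not taken at matched depth.

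**Figure D3:**
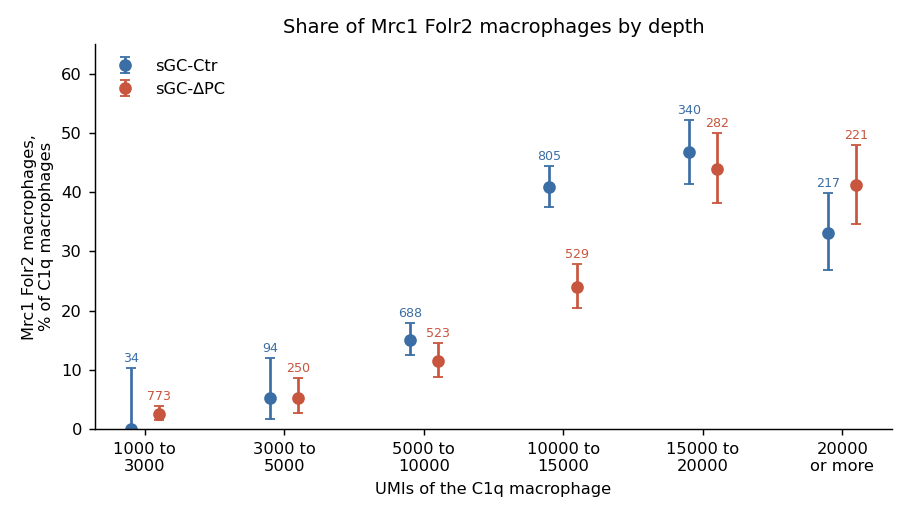
Share of Mrc1 Folr2 macrophages among C1q macrophages (vertical, %) in bands of UMIs per cell (horizontal), with exact binomial 95% intervals; the numbers above the bars are the C1q macrophages in each band. The libraries stand apart at 10000 to 15000 UMIs, at 40.9% and 24.0%, and overlap in the other bands.

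The sGC genes were near absent in these macrophages. Gucy1b1 had 2 UMIs over all sGC-Ctr members and 4 in sGC-∆PC members, against 110.6 and 44.6 CPM in mural cells (40 and 30 barcodes), the pericytes and smooth muscle cells of vessels. Cspg4, whose locus drives the Cre, was present in members. It stood at 50.6 CPM (46.2 to 55.4) in sGC-Ctr and 36.1 CPM (31.6 to 41.0) in sGC-∆PC, a log2 ratio of -0.49 (-0.72 to -0.26), against 154.8 and 77.3 CPM in mural cells. After thinning it was found in 7.92% and 4.61% of members and in none of 57 and 53 T cells. Its level was as high or higher in other C1q macrophages, at 73.1 and 42.8 CPM, and low in MHC II-high ones, at 4.09 and 4.26 CPM.

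Between sGC-∆PC and sGC-Ctr members, 10070 genes had at least 50 UMIs. Their log2 ratios had a median of -0.05, with quartiles of -0.18 and 0.09. At least 2-fold higher in sGC-∆PC members were 59 genes (0.586%), and at least 2-fold lower 67 (0.665%). Without regard to size, 38.9% of the genes were higher and 61.1% lower, and the interval lay above 0 for 7.35% and below 0 for 13.9%. An abundant gene has a narrower interval, so a list of abundant genes holds more of them. Values below are CPM summed over members, sGC-Ctr first, and log2 ratios of sGC-∆PC over sGC-Ctr. A ratio rests on all UMIs of 669 and 435 cells, so a few cells can set it, and the share held by the 10 highest cells is given for the genes with the largest ratios that rest on few.

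Slc7a2 and Nos2, genes of cationic amino acid uptake and nitric oxide synthesis, were higher in sGC-∆PC members. Slc7a2, a transporter of cationic amino acids such as arginine, stood at 12.4 and 43.5 CPM, a log2 ratio of 1.81 (1.49 to 2.13), with 118 and 287 UMIs, of which the 10 highest members held 55.1% and 66.2%. Nos2, the inducible nitric oxide synthase, stood at 8.23 and 20.3 CPM (1.30, 0.89 to 1.73), found in 3.74% and 6.90% of members. After thinning it was found in 1.05% and 1.15% of members, 0.1% and 1.3% of cancer cells and 6.16% and 11.7% of granulocytes. In sGC-∆PC its thinned share in members was thus no higher than in cancer cells. Nos2 was also higher in sGC-∆PC in cancer cells (2.56 and 5.82 CPM) and granulocytes (30.7 and 89.7 CPM). The 10 highest members held 76.9% and 85.1% of the Nos2 UMIs in members. Its ratio fell under 2-fold, to 0.47, among members with 5000 to 20000 UMIs and rose to 2.05 among Mrc1-led members. The same direction was seen in other classes: Slc7a2 differed by 1.82 and 1.74 in other C1q macrophages and MHC II-high macrophages and Nos2 by 1.01 and 0.95. Slc7a2 had a ratio of 0.32 among members with under 3 UMIs of other cell types, 155 and 62 cells.

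Thbs1, an inhibitor of vessel growth, was higher in sGC-∆PC members, at 74.7 and 239 CPM (1.68, 1.55 to 1.81), and found in 19.6% and 37.7% of members (6.58% and 18.0% after thinning). Its ratio was 0.55 in other C1q macrophages and 0.72 in MHC II-high ones, and it stood at 16.0 and 62.1 CPM in cycling C1q macrophages and at 1050 and 2105 CPM in granulocytes, so it was higher in sGC-∆PC in each of these classes. Vegfa, which promotes vessel growth, stood at 50.4 and 87.3 CPM (0.79, 0.62 to 0.97). Fn1, fibronectin, stood at 2066 and 2972 CPM (0.52, 0.50 to 0.55). Cd274, the checkpoint ligand PD-L1, stood at 14.2 and 33.8 CPM (1.25, 0.93 to 1.57), in 1.64% and 6.22% of members after thinning, and differed by 0.28 in other C1q macrophages and 0.04 in MHC II-high ones. In cycling C1q macrophages it stood at 11.0 and 20.7 CPM. Ms4a4c (1.51), Ltb4r1, a leukotriene B4 receptor (1.19), and AW112010 (1.15) were the others of the 10 highest ratios among genes with at least 200 UMIs whose ratio in other C1q and MHC II-high macrophages was below 0.30. Each fell under 2-fold in some alternatives: Ms4a4c ran from 0.99 to 3.16, Ltb4r1 from 0.83 to 1.56 and AW112010 from 0.71 to 1.58. Ppbp, a chemokine of platelets (1.78), and Ccl5 (1.48) rested on few cells: the 10 highest members held 94.7% and 94.0% of their UMIs in sGC-∆PC. The direction of Ccl5 turned under some alternatives, with ratios from -0.23 to 2.49.

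Immediate early genes, which respond within minutes to stimuli and to dissociation, were higher in sGC-∆PC members, and heat shock genes were lower. They formed a joint list of 21 genes with a median of 0.29 against -0.05 for all genes. Of its immediate early genes, 15 of 15 were higher, each with an interval above 0, and 2 at least 2-fold, beside 38.9%, 7.35% and 0.586% of all genes, with a median of 0.41. Of its heat shock genes, 6 of 6 were lower, 4 with intervals below 0, beside 61.1% and 13.9% of all genes, with a median of -0.21. The direction of single heat shock genes turned under some alternatives: Hspa1b ran from -0.59 to 0.25, Dnajb1 from -0.40 to 0.12, Hspa8 from -0.11 to 0.20 and Hsp90aa1 from -0.11 to 0.09. The list was divided in this way after its values were seen. Fosb stood at 62.3 and 144 CPM (1.20, 1.05 to 1.35), Egr1 at 38.5 and 85.0 (1.14), Dusp1, a phosphatase that stops MAP kinases, at 342 and 577 (0.76), and Junb at 730 and 999 (0.45). Over the alternatives Fosb ran from 0.94 to 1.37 and Egr1 from 0.62 to 1.74, so neither was always 2-fold. Hspa1a stood at 346 and 286 CPM (-0.28, -0.36 to -0.19).

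Inflammatory genes of the M1-like list were higher as a group, with a median of 0.33. Of 13 measured, 11 were higher and 2 at least 2-fold, beside 38.9% and 0.586% of all genes. Il1b stood at 105 and 174 CPM (0.74, 0.62 to 0.86), Ptgs2, the prostaglandin synthase COX-2, at 32.0 and 68.4 (1.10), and Ccr2 at 119 and 171 (0.52). Tnf stood at 44.8 and 43.5 CPM (-0.04, -0.26 to 0.18), and Nfkbia, the inhibitor of NF-kappa B, at 386 and 443 (0.20). In the alternative (M2-like) list 8 of 13 were higher and 2 at least 2-fold, beside 38.9% and 0.586% of all genes. Intervals lay above 0 for 7 of them and below 0 for 3, beside 7.35% and 13.9% of all genes. The list's median was 0.20 and ran from -0.06 to 0.30 over the alternatives. Mgl2, a lectin, had 46 and 85 UMIs (1.41), and Retnla 3 and 93 UMIs, found in 0.690% of sGC-∆PC members.

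Antigen presentation on MHC class I was higher across its whole list. All 13 genes were higher in sGC-∆PC members and 11 had intervals above 0, against 38.9% and 7.35% of all genes, with a median of 0.30, none of them 2-fold. B2m, the light chain, stood at 1571 and 1860 CPM (0.24, 0.21 to 0.28), H2-K1 at 692 and 854 (0.30), Tap1, a peptide transporter, at 33.4 and 51.7 (0.63), H2-Q7 at 28.6 and 46.8 (0.71), and Psmb8, a subunit of the immunoproteasome, at 194 and 232 (0.26). B2m and H2-K1 differed less in other C1q macrophages, by 0.08 and 0.03. All 12 MHC class I genes measured there were also higher in Ccl8-led than in Mrc1-led members of both libraries (medians 0.70 and 0.72). Ccl8-led members were 10.3% and 17.5% of members. The part of this mix in the MHC class I result was not tested, and the list's median kept its sign among Mrc1-led members alone. In the list of interferon-stimulated genes 16 of 19 were higher, 9 with intervals above 0 (7.35% of all genes), with a median of 0.25. Zbp1 stood at 17.8 and 32.9 CPM (0.88), Irf7, a transcription factor of the interferon response, at 24.7 and 41.5 (0.75), and Ly6e at 378 and 426 (0.17), while Bst2 stood at 227 and 209 (-0.11). Among Mrc1-led members alone the list's median was 0.44.

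MIF, macrophage migration inhibitory factor, acts through CD74 with CD44 and through CXCR4. All 5 genes measured were higher, 4 with intervals above 0, where 38.9% of all genes were higher and 7.35% had such an interval. Mif itself stood at 861 and 913 CPM (0.09, 0.04 to 0.13). Cd74, which also escorts MHC class II, stood at 264 and 441 (0.74, 0.66 to 0.82), Cd44 at 366 and 457 (0.32) and Cxcr4 at 63.7 and 80.2 (0.33). MHC class II genes were capped by the selection, and Cd74 is known to be made along with them. Cd74 had a ratio of -0.34 among members with under 3 UMIs of other cell types.

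Genes of resident and perivascular macrophages were lower in sGC-∆PC members. Of 18 measured, 15 were lower, 12 with intervals below 0, with a median of -0.26, where 61.1% of all genes were lower and 13.9% had such an interval. Gas6, the bridge between dying cells and the receptor MERTK, stood at 150 and 92.9 CPM (-0.69, -0.83 to -0.55), Stab1 at 611 and 458 (-0.42), Selenop, the selenium carrier, at 572 and 430 (-0.41), and Pf4 at 1915 and 1696 (-0.18). F13a1, coagulation factor XIII, went the other way, at 481 and 560 (0.22). Mgl2 was the 1 gene of the list at least 2-fold higher, beside 0.586% of all genes. The 3 genes at least 2-fold lower, beside 0.665% of all genes, were the lectins Cd209d, Cd209f and Cd209g. Their 57, 75 and 69 UMIs in sGC-Ctr came from 2 or 3 cells each. Fcrls, an Fc receptor-like gene of resident macrophages that was not in the list, stood at 162 and 72.2 CPM (-1.16, -1.31 to -1.01), found in 46.9% and 29.9% of members (20.03% and 11.8% after thinning). Apoe, the lipid carrier, stood at 4495 and 3072 (-0.55, -0.57 to -0.53). Both were lower elsewhere too, with ratios of -1.39 and -1.0 for Fcrls and -0.96 and -0.73 for Apoe in other C1q and MHC II-high macrophages. So were genes of the list: the ratios there were -0.48 and -0.48 for Selenop, -0.36 and -0.27 for Stab1, and -0.39 and -0.26 for Pf4. Gas6 was near level in other C1q macrophages (-0.05) and lower in MHC II-high ones (-0.57). Of 19 lysosomal genes 14 were lower, beside 61.1% of all genes, and 12 had intervals below 0, beside 13.9%, with a median of -0.13 and with Ctsd at 1527 and 1349 CPM (-0.18).

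**Figure D4:**
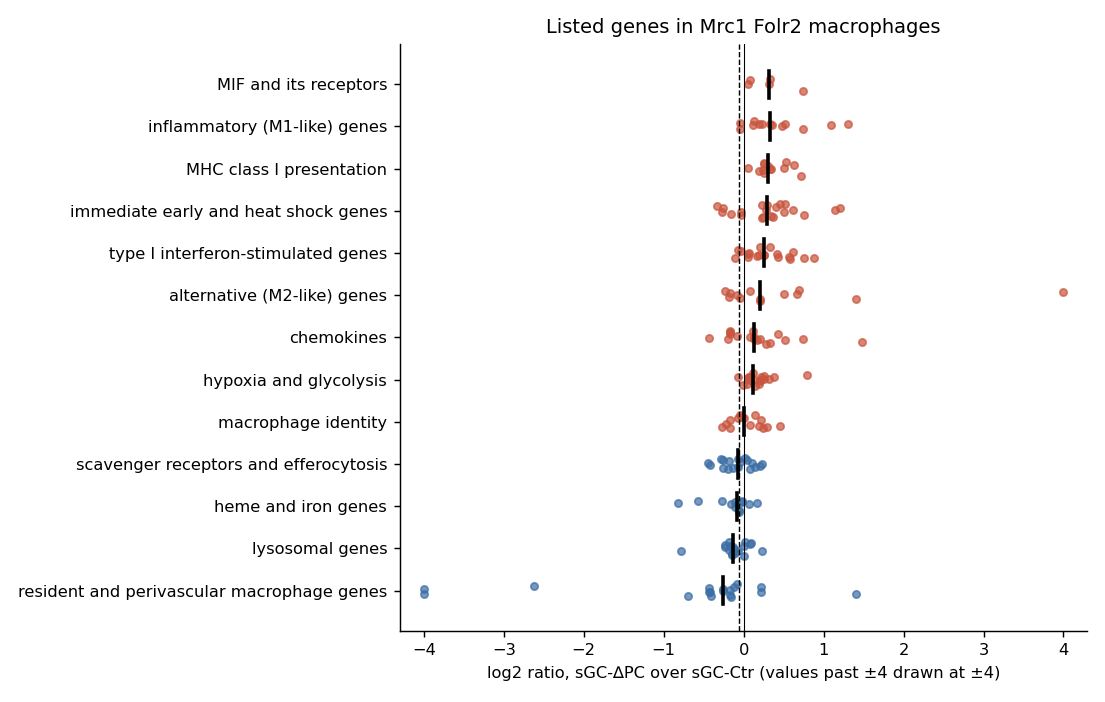
Log2 ratio of sGC-∆PC over sGC-Ctr members for the measured genes of 13 lists; each point is a gene, the black bar is the list's median, the dashed line is the median of all 10070 genes (-0.05), and values past 4 or -4 are drawn there. The 13 MHC class I genes all lie to the right of 0, and 15 of 18 resident and perivascular genes to the left.

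Among genes with at least 200 UMIs, the largest deficits were in genes of red cells and fibroblasts. Hemoglobin genes, Hbb-bs among them with 764 and 2 UMIs, and the matrix genes Postn (-2.96), Col1a2 (-2.46), Sparc (-2.23), Col1a1 (-1.98) and Bgn (-1.68) led the lower side. The 10 highest sGC-Ctr members held 96.3% of Hbb-bs. Of the 8 fibroblast markers, Col3a1 the most abundant, 5 were at least 2-fold lower, beside 0.665% of all genes. Col1a2 was found in 18.1% and 18.6% of members, and the 10 highest sGC-Ctr members held 89.5% of its UMIs against 49.3% in sGC-∆PC. These shares were 95.2% and 70.0% for Postn, 89.8% and 53.0% for Bgn, 89.1% and 47.4% for Col1a1 and 85.6% and 31.6% for Sparc. Col1a2 and Col1a1 were higher in sGC-∆PC among members with 5000 to 20000 UMIs (0.90 and 1.15), so the direction depended on which depths were counted. In other C1q macrophages fibroblast RNA went the other way, 395 and 827 CPM. Monocyte markers, Ccr2 the most abundant, were higher in sGC-∆PC members, 4 of 5 measured with intervals above 0 (7.35% of all genes). The part of these other cell types in the results was not tested. Among genes that macrophages make, Mmp9, a matrix protease, stood at 26.1 and 9.55 CPM (-1.45, -1.87 to -1.04), with 83.4% and 60.3% of its UMIs in the 10 highest members, and Gpnmb, a lysosomal glycoprotein, at 21.4 and 9.70 (-1.14).

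**Figure D5:**
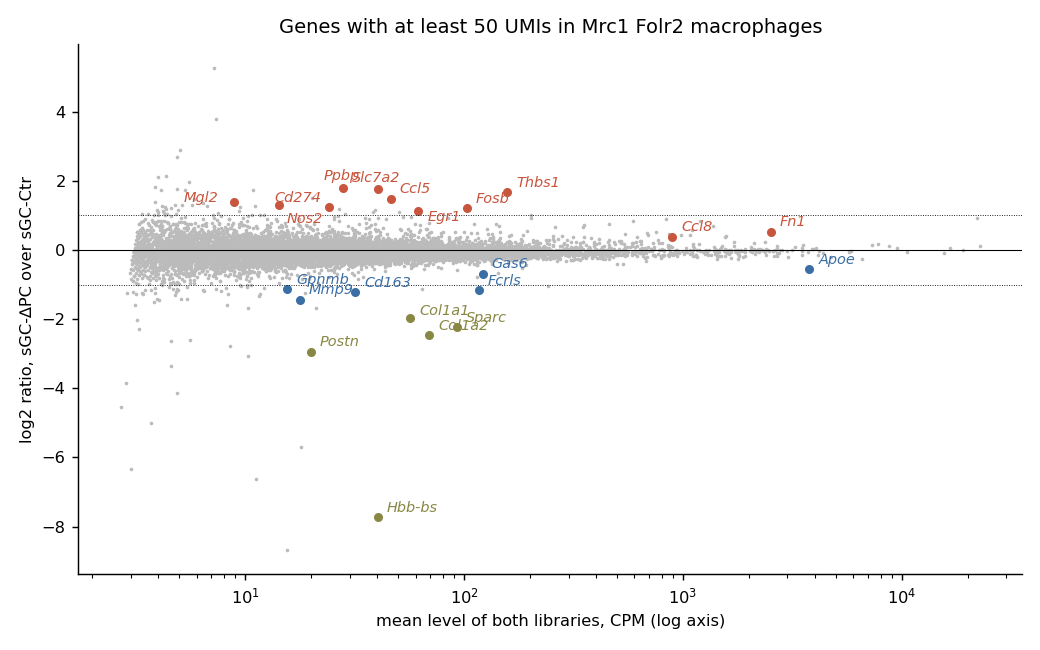
Log2 ratio of sGC-∆PC over sGC-Ctr members (vertical) against the mean level in CPM on a log axis (horizontal) for 10070 genes; dotted lines mark 2-fold. Thbs1 (1.68), Fosb (1.20) and Slc7a2 (1.81) stand above, Fcrls (-1.16) and Cd163 (-1.23) below, and collagen and hemoglobin genes (olive) among the lowest. Cd163 is a selecting gene, so its ratio is a description. Ccl8-led members held 264 of its 422 UMIs in sGC-Ctr and 54 of 125 in sGC-∆PC.

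Members were set against other C1q macrophages of the same library as well, which shows what goes with the 4 selecting genes. Cycling and MHC II-high cells are left out of this comparison. Members were deeper than the other C1q macrophages, with medians of 13330 and 14759 UMIs against 9152 and 4389. Cycling C1q macrophages stood near members in Lyve1, at 88.3 and 76.0 CPM against 86.1 and 77.0. In Fcrls, Gas6 and Selenop they stood between members and other C1q macrophages in both libraries. Of 9914 genes, 77 were at least 2-fold higher in members in both libraries (0.777%) and 29 at least 2-fold lower in both (0.293%), the selecting genes among the former. In the resident and perivascular list 12 of 15 measured were among them. Besides Lyve1 (log2 ratio 3.73 in the sGC-Ctr library and 3.07 in the other) and Vsig4 (3.96 and 3.49) these cells were high in Ednrb (4.45 and 2.86), Slc40a1, the iron exporter ferroportin (2.82 and 3.79), Npl, a sialic acid lyase (3.74 and 2.45), Gas6 (2.73 and 2.08), Fcrls (2.18 and 2.41), Selenop (1.60 and 1.67) and the transcription factor Maf (1.13 and 1.42). Lower were Retnlg (-2.90 and -2.62), S100a9 (-1.86 and -1.97) and S100a8 (-1.53 and -1.51), genes of granulocytes and monocytes, Inhba, an activin subunit (-2.45 and -2.12), F10, coagulation factor X (-1.94 and -1.64), and Acp5, an acid phosphatase of osteoclasts (-1.30 and -1.87). Granulocyte markers summed to 117 and 133 CPM in members and to 351 and 435 in other C1q macrophages. At least 3 of their UMIs were found in 5.83% and 11.7% of members and in 6.69% and 7.41% of the others. The part of depth and of granulocyte RNA in these deficits was not tested. Slc40a1 and Vsig4 were carried by few members, found in 2.39% and 2.76% and in 2.99% and 2.99%. Ednrb was found in 5.23% and 6.90%, and Ccl8-led members held 291 of its 358 UMIs and 111 of 156. By contrast, Selenop was found in 94.3% and 92.4%.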

How the data were processed

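Cells pooled from 3 LLC tumors per condition were sequenced with 10x 3' chemistry. Cell Ranger 6.1.1 was used with mm10 per the submitters' processing notes, and the authors deposited raw UMI counts for 32285 genes. Members and gene lists were chosen with earlier results of these data known. Counts were summed over the cells of a class and scaled to CPM; ratios carry exact conditional, shares exact binomial (Clopper-Pearson) and levels Poisson 95% intervals, for counting error only. All-gene ratios used a pseudocount of 0.5 and genes with at least 50 UMIs; calls mean 2-fold. Shares of cells were thinned to 2000 UMIs where stated. T cells, mural cells and granulocytes were taken by summed markers. No doublet caller was run. Named genes were the selecting and sGC genes, up to 3 genes per list each way and its 5 most abundant, the 10 largest ratios each way, and the 12 largest excesses and 8 deficits against other C1q macrophages (at least 200 UMIs); Ccl8-led and further genes were chosen after their values were seen. Promoters came from RefSeq (GRCm38.p6), positions from GENCODE. Ratios and intervals were tested on simulated Poisson counts, the model that the intervals assume. The simulation left out the concentration of UMIs in few cells. Python 3.11.15, numpy 2.4.6, scipy 1.17.1 and pandas 2.3.3 were used.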

Additional observations from a re-analysis of the deposited data

How the results depend on the processing

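No paired analysis was possible because each condition has 1 library. Shares of members, sGC-Ctr and then sGC-∆PC, were 27.3% and 18.9% with a minimum of 1000 CPM, 33.3% and 24.3% on cells thinned to 5000 UMIs, and 22.9% and 8.81% without cells holding 3 UMIs of other types; sGC-∆PC alone moved to 22.99% from 3000 UMIs and 23.3% at 5000 to 20000 UMIs (the last chosen after seeing the data). The share was lower in sGC-∆PC in each of these. Counts of 2-fold genes, higher and lower, were 21 and 25 with members thinned to 2000 UMIs, 134 and 197 from 20 UMIs, and 15 and 19 from 200 UMIs. Higher genes numbered 91 with cells weighing equally, and lower genes 35 on thinned cells and 27 without collagen I or hemoglobin UMIs (chosen after seeing the data). Against other C1q macrophages, 40 genes were higher and 11 lower after thinning to 2000 UMIs. Fewer genes reach the minimum after thinning (5358 of 10070). Of 214 named genes, 88 had ratios on both sides of 0 over the alternatives, among them Cd74 (-0.34 to 0.96), Mmp12 (-1.47 to 1.05), Cxcl10 (-1.01 to 0.72) and Ednrb (-1.46 to 0.89). Among genes named as at least 2-fold apart, directions turned for matrix genes and Ccl5. On cells thinned to 5000 UMIs these were Bgn 0.37, Col1a1 1.48, Col1a2 1.95, Col3a1 0.62, Dcn 0.27, Postn 0.36 and Sparc 0.74. At 5000 to 20000 UMIs they were Bgn 1.54, Col1a1 1.15, Col1a2 0.90, Col3a1 0.45, Dcn 0.90 and Sparc 0.60. With 1000 CPM they were Col3a1 0.13 and Dcn 0.45, without other-type UMIs Col3a1 0.51 and Ccl5 -0.11, and without collagen I or hemoglobin UMIs Col3a1 0.28, Dcn 0.64, Sparc 0.026 and Ccl5 -0.23. The cause was not tested beyond these values. The medians of the MHC class I (0.11 to 0.36), M1-like (0.19 to 0.63), interferon (0.19 to 0.90) and resident (-0.52 to -0.09) lists kept their sign under all 17 alternatives; the M2-like median ran from -0.06 to 0.30 and the hypoxia and glycolysis median from -0.06 to 0.18. Ccl8 ran from -0.55 to 1.49 and Lyve1 from -0.97 to 1.08. Depth limits the rest: sGC-∆PC C1q macrophages are shallow, and 3 counts correspond to 0.316 and 0.455 CPM in members.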

Other observations

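Ribosomal-RNA-like transcripts (Gm42418, AY036118 and Lars2) took 1.67% of the RNA of sGC-Ctr members and 3.17% of that of sGC-∆PC members, and were also higher in sGC-∆PC in other C1q macrophages (1.77% and 4.40%) and MHC II-high macrophages (1.46% and 3.60%). Mitochondrial UMIs were 4.33% and 4.76%. With both left out of the total, 63 genes were 2-fold higher and 63 lower in sGC-∆PC members. Growth factor and matrix enzyme genes had a median of -0.11 over 18 genes, hypoxia and glycolysis genes were higher in 19 of 21 (38.9% of all genes; median 0.12, which turned to -0.06 among members with under 3 UMIs of other cell types), and Gapdh stood at 3820 and 3929 CPM (0.04, 0.02 to 0.06).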
